A study of Mus musculus with 48 samples.

Results

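Major histocompatibility complex (MHC) class II molecules present peptides from the endocytic pathway to CD4+ T cells. The 7 genes described here are Cd74, H2-Aa, H2-Ab1, H2-Eb1, H2-DMa, H2-DMb1 and Ciita, taken by symbol from a fixed list of names, not by their values. They are 7 of the 49315 genes in the count table and 7 of the 13986 that passed the filter on low counts. They were measured by polyA RNA sequencing in bone marrow-derived macrophages of 3 knockouts and their wild type. The mice lacked the LynA isoform (LynAKO), the LynB isoform (LynBKO) or all Lyn (LynKO), or were wild type (WT), and each genotype had 4 mice, 2 male and 2 female. Lyn is a Src-family tyrosine kinase of myeloid and B cells, and LynA and LynB are splice isoforms of 1 gene. All marrow was grown for 7 days with CMG14-12 cell-conditioned medium as the source of macrophage colony-stimulating factor (M-CSF) and rested overnight without M-CSF. Cells were then given lipopolysaccharide (LPS, from S. Minnesota R595, 2 ng/mL), which signals through Toll-like receptor 4, R848 (20 ng/mL), a small-molecule ligand of Toll-like receptor 7, or medium alone (NT) for 2 h. The 12 groups of genotype and treatment hold 48 libraries. The replicate number was read as the mouse, so that WT 1 names 3 libraries of 1 wild-type mouse. Strain, age and the construction of the alleles were not given in the sources used here. The cells were differentiated and treated independently for each mouse, so p-values of comparisons between genotypes measure the spread between mice. The main ligand and response fits did not use the pairing of libraries of 1 mouse. The fits with the mouse as a block did.

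The class II molecule is a pair of an alpha and a beta chain. In the mouse, H2-Aa and H2-Ab1 encode the chains of I-A, and H2-Eb1 encodes the beta chain of I-E. Cd74 encodes the invariant chain, which occupies the binding groove during assembly and leads the complex to endosomes, where proteases cut it down. H2-DMa and H2-DMb1 encode chains of H2-DM, which helps exchange the remaining invariant chain fragment for peptide. Ciita encodes the transactivator that is recruited by factors bound to the promoters of these genes. Resting macrophages are known for low class II expression, which interferon gamma raises through Ciita.

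In GENCODE M21 on build GRCm38, Cd74 lies on chromosome 18 (60803848 to 60812652, plus strand) and Ciita on chromosome 16 (10480059 to 10528418, plus). All values are read counts over annotated exons. Exons of Ciita overlap those of Dexi on the other strand, and Cd74 overlaps the microRNA gene Mir5107.

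The other 5 genes lie on chromosome 17. They are H2-DMa (34119541 to 34139101, plus strand), H2-DMb1 (34153072 to 34160230, plus), H2-Ab1 (34257689 to 34269419, plus), H2-Aa (34282744 to 34287823, minus) and H2-Eb1 (34305867 to 34316674, plus). Exons of H2-DMa overlap those of Brd2 on the other strand. The sources used here do not give the strand setting of the counting, and reads of opposite genes cannot be told apart. H2-DMb1 has a near-identical neighbour, H2-DMb2, and reads may have been split between them.

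Class II promoters are known for an X box and a Y box, which the RFX and NF-Y factors bind, and this pair of boxes is where CIITA is recruited. The RefSeq promoter table (GRCm38.p6) held 4 of the 7 genes. The 250 bases before the start of H2-Aa (chr17:34287824-34288073, minus strand) and of H2-Eb1 (chr17:34305617-34305866, plus strand) are shown because they carry both letter patterns. Capitals mark matches to CTNGNAAC, an X-like pattern, and to GATTGG, the Y pattern, or its reverse complement.
H2-Aa: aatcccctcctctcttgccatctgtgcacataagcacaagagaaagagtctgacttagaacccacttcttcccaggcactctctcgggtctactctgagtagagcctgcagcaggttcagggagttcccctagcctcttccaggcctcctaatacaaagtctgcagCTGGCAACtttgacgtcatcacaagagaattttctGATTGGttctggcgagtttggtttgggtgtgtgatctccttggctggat
H2-Eb1: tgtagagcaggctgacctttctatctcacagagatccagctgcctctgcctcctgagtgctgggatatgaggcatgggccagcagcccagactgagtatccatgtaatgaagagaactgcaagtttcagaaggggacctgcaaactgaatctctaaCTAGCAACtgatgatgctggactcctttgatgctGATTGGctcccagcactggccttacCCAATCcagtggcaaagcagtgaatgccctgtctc
Counted back from the start, the X-like match stood at -84 and the Y match at -49 in H2-Aa, and at -94 and -60 in H2-Eb1, which had a further Y match on the other strand at -35. H2-DMb1 held the X-like match CTAGTAAC at -97 and a Y match at -62 (chromosome 17, 34153094 and 34153129). These are counted from a RefSeq start that lies inside the GENCODE span of the gene. Both matches therefore lie past the GENCODE start at 34153072. The listed promoters of H2-DMa held no such pair, and a Y match stood at -199 in one of them, also inside that gene's GENCODE span. Both strands were searched in windows of 300 bases, which run 50 bases past the start. Of 32851 such promoters, 13.2% held the X-like pattern, 16.1% the Y pattern, and 0.137% an X-like match followed on 1 strand by a Y match with starts at most 40 bases apart. The 2 patterns do not overlap in their letters, which were chosen after these promoters had been read. A match is a description of the letters and not evidence of binding.

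Levels are in CPM, a gene's share of its library's counts on a common scale, with library sizes adjusted by the trimmed mean of M-values (TMM), and a ± after a level is the SD of 4 libraries, or of 3 for WT without WT 1. A ± after a log2 fold change is the SE from edgeR, and a gene passed the test at an adjusted p (Benjamini and Hochberg, over 13986 genes) under 0.05. Statements that groups do or do not overlap are descriptions. The share of all genes that separate in the same way is not given. Totals ran from 14974764 to 23321447 counts per library. Lyn itself was at 64.0 to 119.4 CPM in LynKO libraries, and WT libraries held 166.9 to 397.6 CPM. The groups did not overlap within a treatment. A count of Lyn over all exons does not separate LynA from LynB, and the LynAKO (106.6 to 257.4 CPM) and LynBKO (118.7 to 272.8 CPM) libraries lay between LynKO and WT within each treatment. The 10 macrophage markers summed to 24476.8 to 29558.1 CPM in LynKO libraries and to 37050.7 to 46189.9 CPM in WT libraries. Lyz2 made up much of these sums, at 13049.5 to 29749.3 CPM in the 45 libraries other than those of WT 1. In NT without WT 1, Lyz2 differed between LynKO and WT by -0.69 on the log2 scale. The median difference of the 10 markers there was -0.13. The part of these markers in the differences below was not tested. In bulk RNA, fewer cells of a type and less RNA per cell cannot be told apart.

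Some libraries stood apart or went against their number or label. The library labelled LynBKO NT 2 held Xist (240.7 CPM) and no Y-linked counts, and the one labelled LynBKO NT 3 held Y-linked genes (220.2 CPM). Their sex labels, female and male, match this RNA, but the LPS libraries with these numbers showed the opposite and carry the opposite labels. The libraries labelled LynBKO NT 4 and LynKO NT 4 held both Xist (121.4 and 231.8 CPM) and Y-linked genes (133.0 and 70.8 CPM). Mouse counts, mouse means and fits by mouse below use these libraries by their number. For LynBKO 2 to 4 and LynKO 4, the NT library may thus not belong to that mouse, or not to it alone. The 3 libraries of mouse WT 1 stood apart at the class II genes themselves, so many results of the 7 genes with WT are given with and without that mouse. Others are given only with all 4 WT mice. Values of other gene lists include WT 1 unless stated.

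By counted reads, mouse WT 1 had a far higher Cd74 level and a far lower H2-DMb1 level than any other mouse, whatever the treatment. Cd74 was at 3786.6, 1767.6 and 2958.2 CPM in WT 1 after LPS, R848 and NT. The other 15 mice held 70.5 to 232.1 CPM after LPS, 61.9 to 177.4 after R848 and 39.7 to 114.4 in NT. WT 1 was thus 28.2, 18.0 and 45.0 times the median of the other mice. H2-DMb1 was at 0.391, 0.367 and 0.744 CPM in WT 1, from 5, 6 and 16 reads, against medians of 22.9, 22.3 and 24.8 CPM in the other mice. These medians are 58.6, 60.7 and 33.4 times the WT 1 values. The chains H2-Aa and H2-Eb1 were lower in WT 1 in each treatment. H2-Aa had 5.31, 3.12 and 3.07 CPM in WT 1 after LPS, R848 and NT, where the lowest of the other mice had 16.8, 12.9 and 7.33. H2-Eb1 had 13.8, 7.65 and 4.14 CPM in WT 1, where the lowest of the other mice had 17.4, 17.3 and 7.1.

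The other 3 genes did not follow. H2-Ab1 was inside the range of the other mice after LPS (121.5 CPM in WT 1) and in NT (27.0), and just below it after R848 (67.4 CPM in WT 1, against a lowest value of 68.0). H2-DMa in WT 1 was within the range in NT (13.9 CPM) and after R848 (9.86), and just above it after LPS (15.5, against a highest value of 15.3). Ciita in WT 1 was within the range in each treatment, at 3.36, 3.37 and 2.05 CPM after LPS, R848 and NT. The high Cd74 of WT 1 was thus not accompanied by high Ciita. The authors' variance-stabilised log2 values show the same split, with Cd74 at 14.93 to 16.03 in WT 1 and at most 12.06 in any other mouse. In that table H2-DMb1 was at 6.61 to 6.79 in WT 1 and at 8.61 or more in the others.

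**Figure D1:**
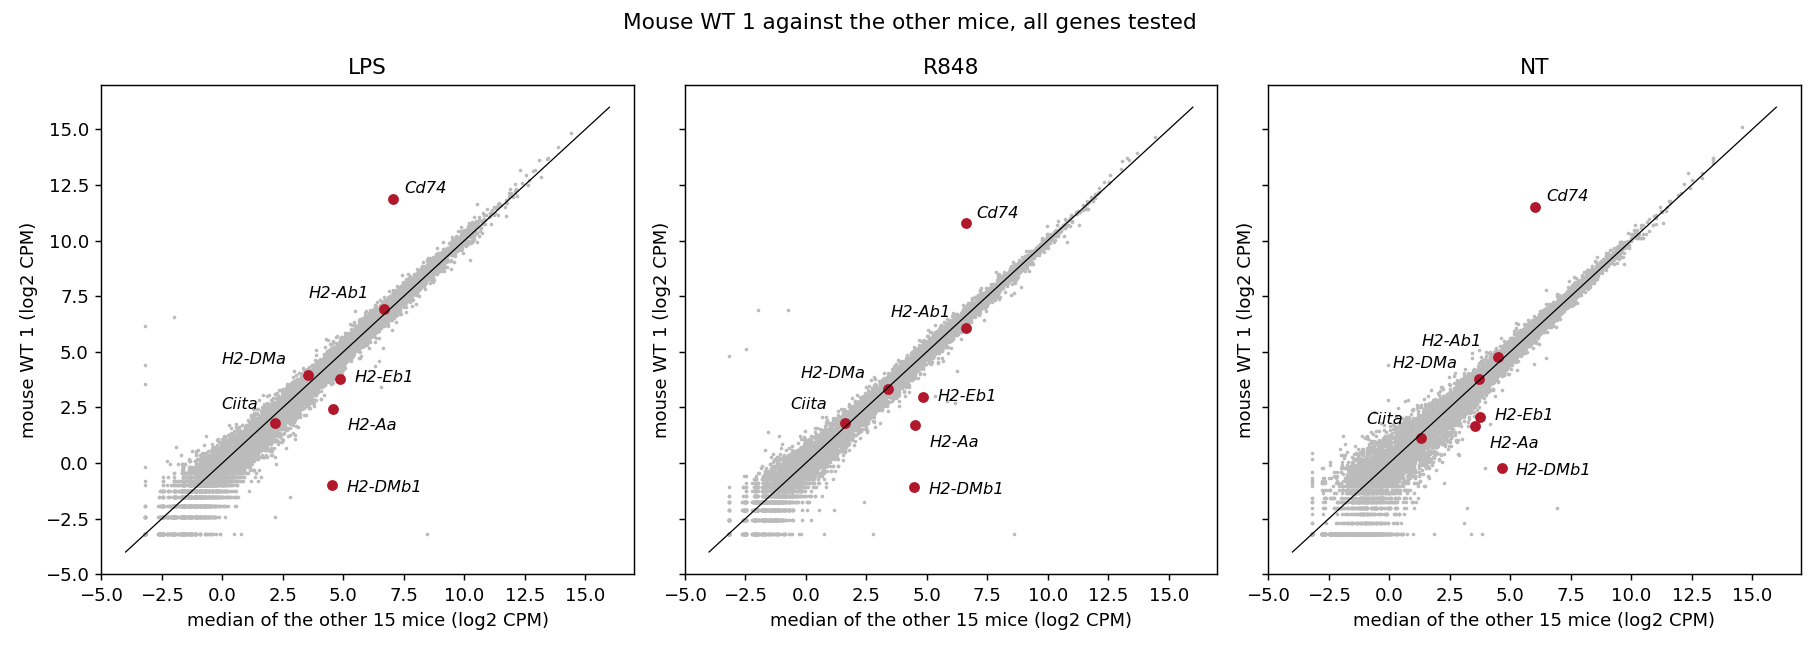
Log2 CPM of all 13986 genes tested in mouse WT 1 (y axis) against the median of the other 15 mice (x axis), in 1 panel each for LPS, R848 and NT. The line marks equal values, grey points are genes and red points are the 7 class II genes. Cd74 lies far above the line, H2-DMb1 far below it, H2-Aa and H2-Eb1 below it, and the other 3 near it in each panel.

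Of the 7 genes, 4 (Cd74, H2-DMb1, H2-Aa and H2-Eb1) lay outside the range of the other 15 mice by more than 1 log2 unit from their median in all 3 treatments. The same held for 20 of the 13986 genes tested, or 0.143%. In none of the other 15 mice did any of the 7 genes meet this rule, and their counts over all genes ran from 0 to 12 (0.0858%, WT 4), with 33 (0.236%) in LynKO 4. The rule was set with these values known, so the count is a description. The 20 genes included 7 on chromosome 17. Besides the class II genes these were H2-Q5, H2-Q6 and H2-Q7, nonclassical class I genes whose similar sequences make their counts uncertain, and H2-T-ps. H2-Q7 had 24.3, 6.86 and 0.0465 CPM in WT 1 after LPS, R848 and NT, against medians of 89.1, 56.3 and 8.27 CPM in the other mice. Beside Cd74, 12 of the 20 lay on other chromosomes. One was Mr1, which encodes a class I-like molecule that presents vitamin B metabolites, at 0.234, 0 and 0.744 CPM in WT 1, against medians of 6.86, 6.69 and 15.2 CPM in the other mice. The other 11 included Eps8l1, at 0.0782, 0.184 and 0.419 CPM in WT 1, against medians of 4.39, 5.21 and 4.70 CPM in the other mice. They also included Sox12, which was higher, at 1.56, 1.41 and 6.75 CPM in WT 1, against medians of 0.155, 0.198 and 1.45 CPM. Mr1, Eps8l1 and Sox12 were named after their values were seen. In the stretch of chromosome 17 from H2-K1 to H2-T23 (33996017 to 36032855), 6 of 102 tested genes met the rule.

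Markers of other cells were summed in the same libraries. The summed level of 17 dendritic cell markers was 34.8 to 45.0 CPM in WT 1, and the other 45 libraries held 28.1 to 55.2 CPM. The 12 B cell markers summed to 12.7 to 26.7 CPM in WT 1 and to 8.76 to 25.0 CPM in the others, with 5 at 0 in the 3 WT 1 libraries, Ms4a1, Pax5, Cr2 and Igkc among them. The 10 T and NK cell markers summed to 0.558 to 3.28 CPM in WT 1 and to 0.308 to 2.96 CPM in the others, with 6 at 0 in WT 1. The 10 neutrophil markers summed to 34.4 to 45.5 CPM in WT 1 and to 12.4 to 74.9 CPM in the others, with Ly6g, Mpo and Elane at 0 in WT 1. Such zeros were not particular to WT 1. Depending on the group, 2 to 6 B cell, 3 to 6 T and NK cell and 0 to 2 neutrophil markers were at 0 in all 4 libraries. The sum of the 10 macrophage markers was 39100 to 46189.9 CPM in WT 1 and 24476.8 to 41244.3 CPM in the others. Much of it was Lyz2, at 25908.4 to 35974.7 CPM in WT 1 and 13049.5 to 29749.3 CPM in the others. The B cell sum of WT 1 was the highest of all mice in NT (26.7 CPM, against at most 25.0) and after LPS (18.4 CPM, against at most 17.6), and so were its macrophage sums in NT (46189.9 CPM) and after LPS (44603.3 CPM) and its T and NK cell sum after LPS (3.28 CPM). The part of these cells in the Cd74 level was not tested.

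Without WT 1, Cd74 was the most abundant of the 7 per kilobase of exon. In WT mice 2 to 4 after LPS it averaged 97.2 CPM per kb, H2-Ab1 38.7, H2-Eb1 14.6, H2-DMb1 11.0, H2-Aa 5.62, H2-DMa 3.35 and Ciita 0.32. This order held in 13 of 16 libraries after LPS and in 11 of 16 after R848, and in 6 of the other 8 it differed only in that H2-DMb1 stood above H2-Eb1. The remaining 2 libraries were those of WT 1. In NT, H2-DMb1 (11.2 CPM per kb in WT mice 2 to 4) stood second, above H2-Ab1 (9.5), and the order was Cd74, H2-DMb1, H2-Ab1, H2-Eb1, H2-DMa, H2-Aa, Ciita in 12 of 16 libraries. H2-DMa stood above H2-Aa in those 12 and in WT 1, and below it in the other 3. The difference between these neighbours was not tested.

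**Figure D2:**
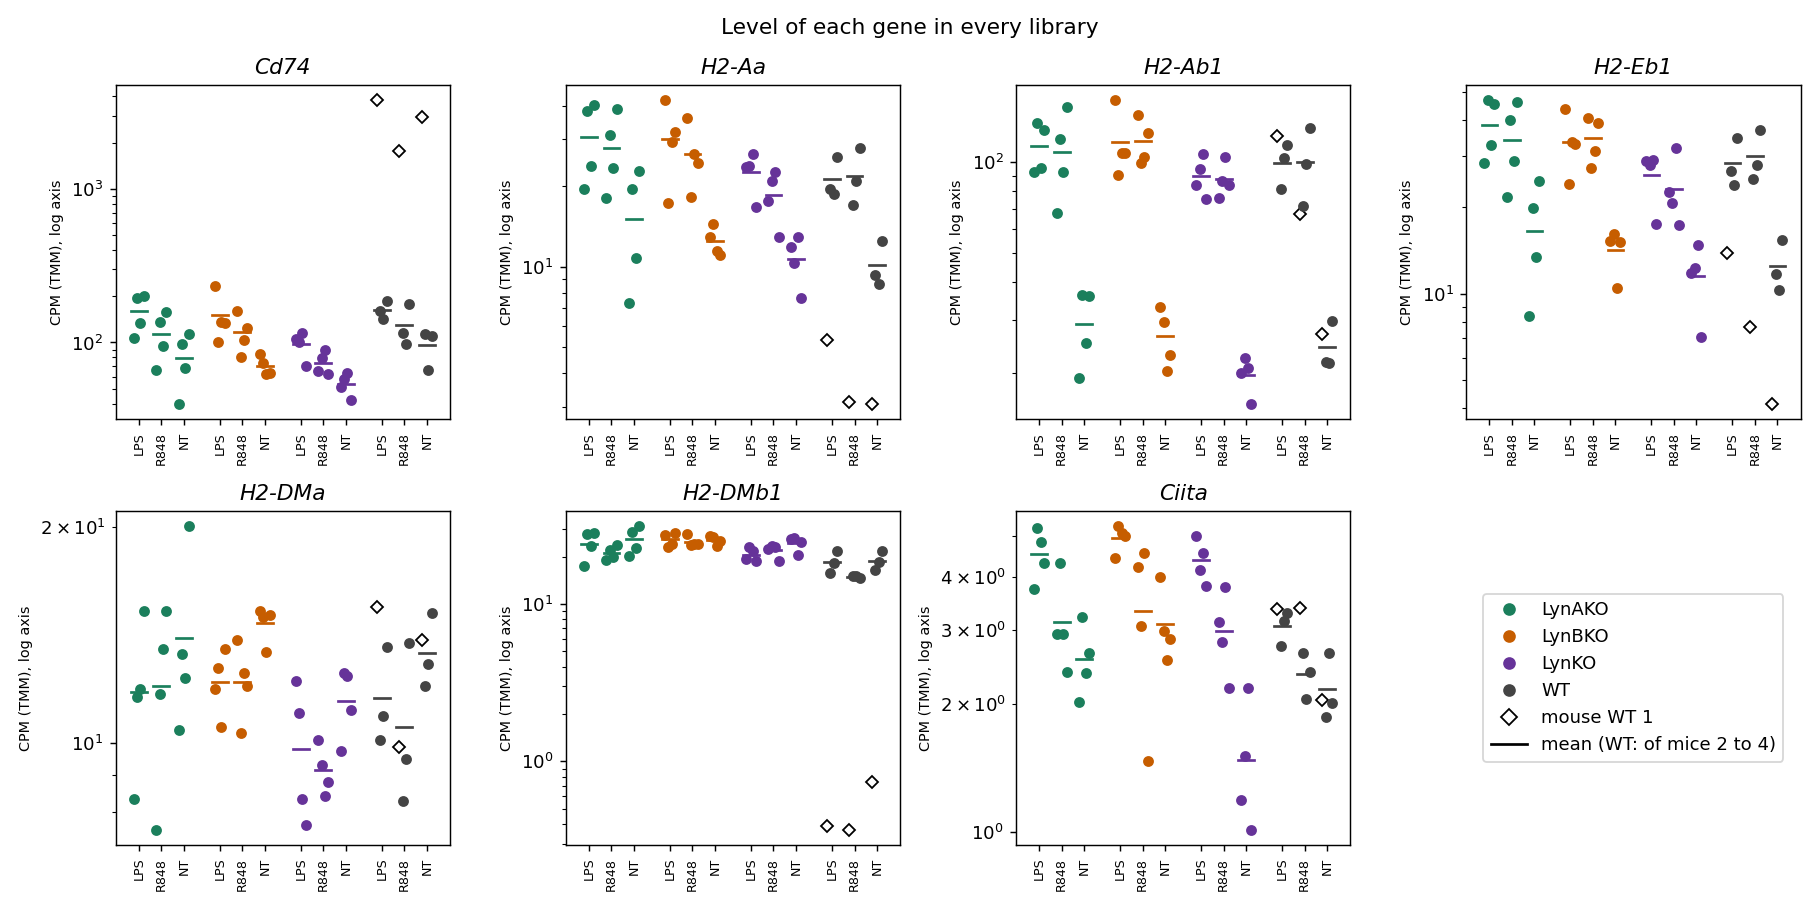
CPM (log axis) of the 7 genes in each of the 48 libraries, by genotype and treatment. Points are libraries, open diamonds are mouse WT 1, and bars are means of 4 libraries, for WT of mice 2 to 4. H2-Ab1 separates the ligand groups from NT in every genotype, while H2-DMa and H2-DMb1 do not, and WT 1 is far off at Cd74 and H2-DMb1.

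Among the chains, H2-Ab1 rose most, about 4-fold, with either ligand in all 4 genotypes. After LPS it had 93.0, 134.2, 95.9 and 128.1 CPM in LynAKO mice 1 to 4, 160.3, 90.8, 107.2 and 107.5 in LynBKO, 84.1, 94.5, 106.4 and 75.4 in LynKO, and 121.5, 81.2, 103.0 and 113.9 in WT. After R848 it had 68.0, 119.6, 92.6 and 152.7 CPM in LynAKO mice, 143.0, 99.3, 104.0 and 124.8 in LynBKO, 76.0, 86.4, 103.7 and 84.2 in LynKO, and 67.4, 71.5, 98.4 and 130.1 in WT. In NT it had 19.3, 36.2, 25.1 and 36.0 CPM in LynAKO mice, 33.0, 29.5, 20.4 and 22.9 in LynBKO, 20.1, 22.4, 20.8 and 15.8 in LynKO, and 27.0, 21.8, 21.6 and 29.8 in WT. Every ligand library lay above every NT library, in each genotype and across all of them. The log2 fold change of LPS against NT was 1.95 ± 0.23 in LynAKO (adjusted p = 1.08e-06), 2.14 ± 0.17 in LynBKO (6.49e-09), 2.18 ± 0.13 in LynKO (4.86e-10) and 2.08 ± 0.18 in WT (1.76e-08). That of R848 against NT was 1.90 ± 0.23, 2.16 ± 0.17, 2.13 ± 0.13 and 1.90 ± 0.18 in the same order of genotypes, with an adjusted p of 1.92e-06 or less. Each of the 16 mice was higher with either ligand than in NT. Leaving out WT 1 gave WT changes of 2.03 ± 0.20 for LPS and 2.04 ± 0.20 for R848.

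H2-Eb1 also rose with both ligands in every genotype, by a smaller log2 change than H2-Ab1. In LynKO it averaged 25.8 ± 5.62 CPM after LPS, 23.1 ± 6.34 after R848 and 11.5 ± 3.22 in NT. WT averaged 24.7 ± 8.69, 24.4 ± 12.3 and 10.4 ± 4.7 CPM with WT 1, and 28.4 ± 5.72, 30.0 ± 6.22 and 12.5 ± 2.66 CPM without it. The change after LPS was 1.22 ± 0.28 in LynAKO, 1.24 ± 0.17 in LynBKO, 1.16 ± 0.22 in LynKO and 1.26 ± 0.38 in WT on the log2 scale, the last with an adjusted p of 0.00848. After R848 it was 1.07 ± 0.28, 1.28 ± 0.17, 0.99 ± 0.22 and 1.24 ± 0.38, and the WT value (adjusted p = 0.0104) no longer passed without WT 3 (1.13 ± 0.49, adjusted p = 0.0683). All 16 mice were higher with each ligand. On the log2 scale, WT mice 2 to 4 rose by 1.18, 1.20 and 1.17 after LPS. After R848 they rose by 1.09, 1.44 and 1.25.

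H2-Aa rose with both ligands in the 3 knockouts, and in WT once WT 1 was left out. In LynAKO it had 19.6, 38.3, 23.9 and 40.3 CPM after LPS, 18.1, 31.1, 23.4 and 38.8 after R848, and 7.33, 19.5, 10.8 and 22.9 in NT. WT mice had 5.31, 19.6, 18.8 and 25.7 CPM after LPS, 3.12, 17.0, 20.9 and 27.9 after R848, and 3.07, 9.33, 8.60 and 12.5 in NT. WT 1 was the lowest of the 4 in each treatment, and its ligand libraries lay below the NT libraries of the other WT mice. The change after LPS was 1.01 ± 0.31 in LynAKO (adjusted p = 0.00945), 1.26 ± 0.22 in LynBKO, 1.08 ± 0.19 in LynKO and 1.06 ± 0.49 in WT (0.0704). Leaving out WT 1 gave a WT change of 1.08 ± 0.19 (adjusted p = 0.00025), and with the mouse as a block and WT 1 kept it was 1.04 ± 0.15 (7.69e-06). After R848 it was 0.89 ± 0.31 in LynAKO (0.0214, and 0.84 ± 0.36 with 0.0755 without LynAKO 3), 1.07 ± 0.22 in LynBKO, 0.78 ± 0.19 in LynKO and 1.05 ± 0.49 in WT (0.0782). The WT value without WT 1 was 1.11 ± 0.19 (adjusted p = 0.000234), and in the block fit it was 0.97 ± 0.15 (2.17e-05). The direction was the same in 16 of 16 mice for each ligand.

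Cd74, the invariant chain gene, rose after LPS in the 3 knockouts, and after R848 in LynBKO and LynKO. After LPS it had 106.5, 196.3, 134.4 and 199.4 CPM in LynAKO mice, 232.1, 100.8, 136.5 and 134.1 in LynBKO, 106.0, 101.0, 115.9 and 70.5 in LynKO, and 3786.6, 160.3, 142.7 and 186.7 in WT. After R848 it had 65.7, 136.5, 95.4 and 157.5 CPM in LynAKO mice, 159.6, 80.9, 104.3 and 124.7 in LynBKO, 64.8, 79.1, 89.6 and 61.9 in LynKO, and 1767.6, 114.7, 98.4 and 177.4 in WT. In NT it had 39.7, 97.5, 68.3 and 113.8 CPM in LynAKO mice, 83.9, 74.0, 61.9 and 63.1 in LynBKO, 51.0, 57.6, 63.3 and 42.2 in LynKO, and 2958.2, 114.4, 65.7 and 110.2 in WT. The LPS and NT groups did not overlap in LynBKO or LynKO, nor in WT mice 2 to 4, and overlapped in LynAKO. The change after LPS was 1.00 ± 0.29 in LynAKO (adjusted p = 0.00727), 1.09 ± 0.21 in LynBKO (0.000234), 0.87 ± 0.16 in LynKO (0.000152) and 0.40 ± 1.24 in WT (0.802). Without WT 1 the WT change was 0.76 ± 0.21 (adjusted p = 0.00704), and in the block fit with all 4 mice it was 0.67 ± 0.16 (0.00122). All 16 mice were higher after LPS, by 0.36 to 1.47 on the log2 scale.

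For R848 the Cd74 change was 0.52 ± 0.29 in LynAKO (adjusted p = 0.138), 0.73 ± 0.21 in LynBKO (0.00673), 0.45 ± 0.16 in LynKO (0.0229) and -0.56 ± 1.24 in WT (0.722). With the mouse as a block the LynAKO value was 0.54 ± 0.08 (adjusted p = 4.21e-06). WT without WT 1 gave 0.43 ± 0.21 (adjusted p = 0.103), and 0.43 ± 0.11 (0.00349) when the block was added. The direction was positive in 14 of 16 mice, with WT 1 at -0.74 and WT 2 at 0 as the exceptions. The LynBKO call was lost without LynBKO 4 (0.65 ± 0.27, adjusted p = 0.0561), and the LynKO call without LynKO 1 (0.49 ± 0.20, 0.0586) or LynKO 2 (0.45 ± 0.20, 0.0825). It was also lost without the LynKO NT 4 library, which held both Xist and Y-linked RNA (0.35 ± 0.16, 0.0766).

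No change of H2-DMa or H2-DMb1 passed as higher with either ligand. H2-DMa ran from 7.68 to 15.5 CPM over the 16 LPS libraries, from 7.55 to 15.3 after R848 and from 9.74 to 20.1 in NT. The ligand and NT groups overlapped in every genotype. H2-DMa was lower in LynBKO after LPS (-0.27 ± 0.11, adjusted p = 0.0347) and after R848 (-0.27 ± 0.11, 0.0409). The LPS call was lost without LynBKO 1 (adjusted p = 0.098), LynBKO 2 (0.0687) or LynBKO 3 (0.0949), and the R848 call without LynBKO 2 (-0.18 ± 0.13, 0.247) or LynBKO 4 (0.115). Both were lost without the LynBKO NT 4 library (adjusted p = 0.0651 and 0.0937). With the mouse as a block, R848 also passed as lower in LynKO (-0.34 ± 0.14, adjusted p = 0.0414) and WT (-0.37 ± 0.12, 0.0153). By mouse, the WT changes were -0.49 in WT 1 and -0.52, -0.44 and -0.13 in WT 2 to 4. H2-DMa was lower in 14 of 16 mice with each ligand. H2-DMb1 had 19.2, 22.9, 21.7 and 18.7 CPM after LPS in LynKO mice, 22.3, 23.4, 23.2 and 18.8 after R848, and 25.8, 26.4, 20.6 and 24.8 in NT, the largest of its LPS differences (-0.25 ± 0.10, adjusted p = 0.0506, and 0.0262 with the mouse as a block). In WT its values were 0.391, 15.7, 18.3 and 21.6 CPM after LPS, 0.367, 15.1, 15.1 and 14.7 after R848, and 0.744, 16.5, 18.4 and 21.7 in NT. H2-DMb1 passed in none of the 8 ligand comparisons. With the mouse as a block it was also lower after R848 in LynAKO (-0.25 ± 0.09, adjusted p = 0.0159) and WT (-0.32 ± 0.13, 0.0414). The R848 change was -0.84 in WT 1 and -0.12, -0.28 and -0.56 in WT 2 to 4.

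Ciita had the lowest CPM of the 7 in every library but those of WT 1, where H2-DMb1 was lower. Ciita rose after LPS in every genotype. After LPS it had 3.74, 5.23, 4.83 and 4.31 CPM in LynAKO mice, 4.43, 5.28, 5.09 and 4.99 in LynBKO, 5.01, 4.16, 4.56 and 3.81 in LynKO, and 3.36, 2.74, 3.15 and 3.28 in WT. After R848 it had 2.93, 4.31, 2.93 and 2.38 CPM in LynAKO mice, 4.23, 3.07, 4.55 and 1.47 in LynBKO, 3.13, 2.80, 3.78 and 2.19 in LynKO, and 3.37, 2.64, 2.06 and 2.39 in WT. In NT it had 2.02, 3.22, 2.37 and 2.65 CPM in LynAKO mice, 4.00, 2.98, 2.54 and 2.86 in LynBKO, 1.19, 1.51, 2.19 and 1.01 in LynKO, and 2.05, 1.87, 2.64 and 2.01 in WT. LPS and NT did not overlap in any genotype, while after R848 the groups overlapped in LynAKO, LynBKO and WT and met at 2.19 CPM in LynKO. The LPS change was 0.82 ± 0.22 in LynAKO (adjusted p = 0.00385), 0.69 ± 0.24 in LynBKO (0.0191), 1.56 ± 0.24 in LynKO (3.55e-05) and 0.56 ± 0.22 in WT (0.0349). The WT call was lost without WT 1 (0.49 ± 0.23, adjusted p = 0.081), WT 2 (0.55 ± 0.28, 0.108) or WT 4 (0.50 ± 0.27, 0.134), and the LynBKO call without LynBKO 2 (0.64 ± 0.31, 0.094) or LynBKO 3 (0.58 ± 0.28, 0.086). After R848 Ciita passed in LynKO (0.99 ± 0.25, adjusted p = 0.00293) and in no other genotype. Counts behind these values were 21 to 103 reads per library.

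**Figure D3:**
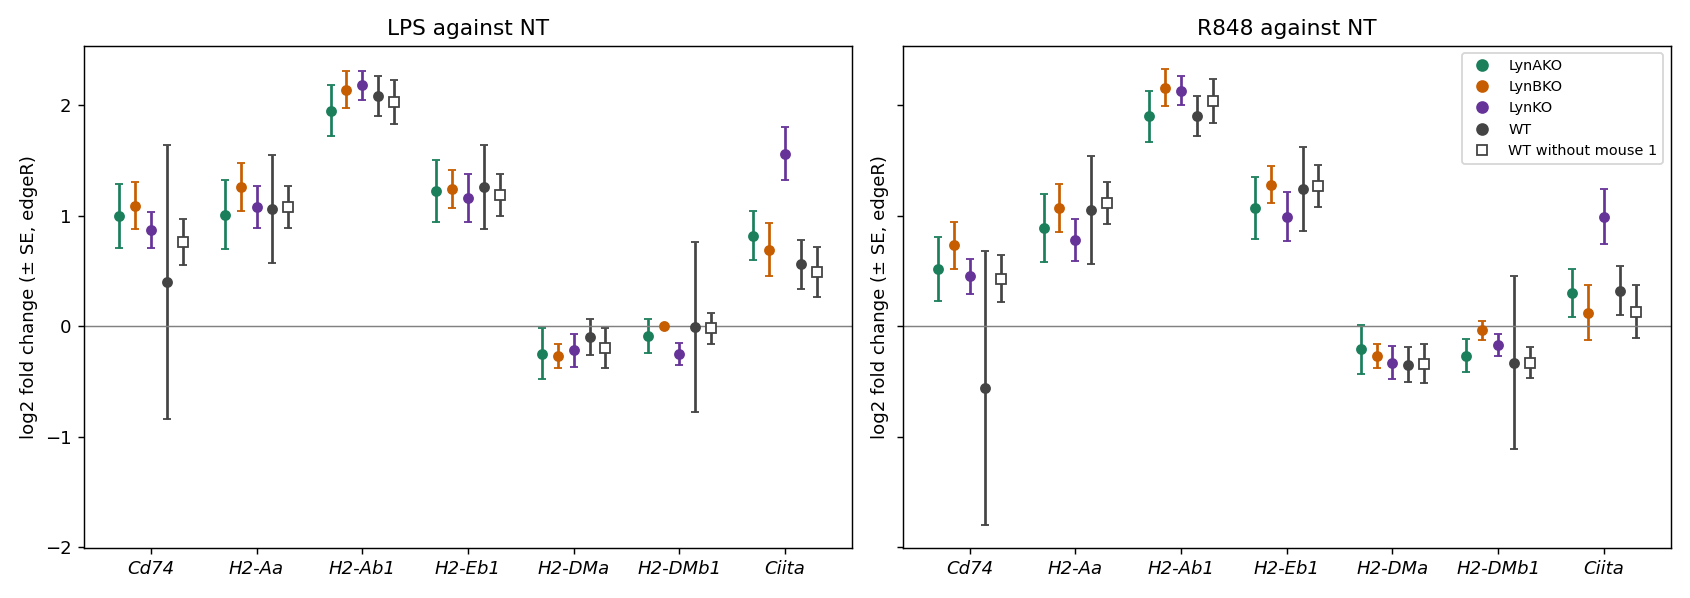
Log2 fold change against NT (y axis, ± SE from edgeR) of the 7 genes after LPS and after R848, by genotype. Filled circles are fits with 4 mice and open squares WT without mouse 1. A point at 0 with no bar has no SE, which was computed from the change and its test statistic. H2-Ab1 lies near 2 in each genotype, and the wide WT bars of Cd74 and H2-DMb1 narrow without WT 1.

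Counted over the 7 genes, LPS against NT passed for 5 in LynAKO, where 60.7% of all genes tested passed, 6 in LynBKO (67.3% of all genes), 5 in LynKO (61.7%) and 3 in WT (61.6%). Without WT 1 the WT count was 4 (59.7%), and with the mouse as a block it was 5 (64.1%). R848 against NT passed for 3 in LynAKO (56% of all genes), 5 in LynBKO (63.5%), 5 in LynKO (55.3%) and 2 in WT (56.7%). With the block, 67.5%, 67.2%, 66.7% and 64.1% of all genes passed after LPS and 63.9%, 63%, 61.1% and 59.9% after R848. The block raised the R848 counts to 5 in LynAKO and 5 in WT, and without WT 1 the WT count was 3 (55.5%). Most genes tested passed, so these counts are near the background, and the genes are better told apart by the size and direction of their changes. The median change of the 7 after LPS was 1.00 in LynAKO, 1.09 in LynBKO, 1.08 in LynKO and 0.56 in WT on the log2 scale (0.76 without WT 1), beside medians of -0.04 to -0.03 over all genes. After R848 it was 0.52, 0.73, 0.78 and 0.32 (0.43 without WT 1).

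The size of these changes depended on the scaling. TMM factors were 0.793 to 0.937 in LPS libraries, 0.923 to 1.01 in R848 libraries and 1.15 to 1.27 in NT libraries. With total counts as the library size, an alternative chosen after seeing the data, the median of all genes moved to -0.54 to -0.48 after LPS. Of all genes, 73.7%, 77.9%, 73.4% and 73.7% then passed after LPS and 65.8%, 72.2%, 63.5% and 66.3% after R848. H2-Ab1 was still higher in all 8 ligand comparisons under that scaling, by 1.46 to 1.83. H2-DMa was then lower with an adjusted p under 0.05 in all 8 and H2-DMb1 in the 6 of the knockouts. H2-Eb1 was still higher in the 6 comparisons of the knockouts (0.69 to 0.93) and H2-Aa in those of LynBKO and LynKO (0.48 to 0.76). Under the same scaling Cd74 passed only for LPS in LynBKO (0.59 ± 0.20) and LynKO (0.42 ± 0.15), and Ciita only in LynKO (1.11 ± 0.24 for LPS, 0.69 ± 0.24 for R848). The R848 change of Ciita turned to -0.04, -0.24 and -0.04 in LynAKO, LynBKO and WT. The median change of the 7 was then 0.50 in LynAKO, 0.59 in LynBKO, 0.63 in LynKO and 0.04 in WT after LPS, and 0.17, 0.37, 0.48 and -0.04 after R848.

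Between the ligands, no member passed in edgeR's test of LPS against R848 in any genotype, where 17.6%, 26.5%, 15.9% and 21% of all genes passed in LynAKO, LynBKO, LynKO and WT. At an unadjusted p under 0.05 there were 1, 1, 2 and 0 of the 7, and DESeq2 called 0 in each, with no adjusted p for 1 gene in WT. With the mouse as a block, Cd74 was higher after LPS than after R848 in LynAKO (0.50 ± 0.08, adjusted p = 4.22e-05), LynKO (0.42 ± 0.07, 0.000314) and WT (0.51 ± 0.16, 0.0229). Ciita then passed in LynAKO (0.52 ± 0.19, adjusted p = 0.0453) and LynKO (0.59 ± 0.20, 0.0393), and H2-Aa in LynKO (0.30 ± 0.09, 0.0205). The block counts were thus 2, 0, 3 and 1 of 7, beside 28.9%, 26.1%, 23.6% and 26.4% of all genes. Cd74 was higher after LPS in 16 of 16 mice, by 0.07 to 1.10 on the log2 scale, and Ciita in 15 of 16. Of the WT mice, WT 1 had 1.10 for Cd74, and WT 2 to 4 had 0.48, 0.54 and 0.07. H2-Ab1 was higher after LPS in 11 of 16 mice, with a median difference of 0.06.

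The comparison of each knockout with WT asks whether losing LynA, LynB or both changed these levels. Cd74 was the only one of the 7 that passed, and only in LynKO. The fold against all 4 WT mice was set largely by WT 1. Cd74 was lower in LynKO by -3.41 ± 0.77 after LPS (adjusted p = 0.00902), -2.87 ± 0.68 after R848 (0.0173) and -3.91 ± 0.86 in NT (0.00465) on the log2 scale. Without WT 1 the differences were -0.71 ± 0.23 (adjusted p = 0.0856), -0.82 ± 0.26 (0.0885) and -0.84 ± 0.25 (0.0456), so that the call held in NT alone. With a replicate block and all 4 WT mice the call was lost in NT (-2.72 ± 0.89, adjusted p = 0.0653), and the difference passed after LPS (-2.32 ± 0.70, 0.0365) and R848 (-2.12 ± 0.63, 0.0338). LynKO means were 98.4 ± 19.6, 73.9 ± 12.9 and 53.5 ± 9.09 CPM after LPS, R848 and NT. WT means were 1069.1 ± 1811.8, 539.5 ± 819.4 and 812.2 ± 1430.9 CPM with WT 1, and 163.2 ± 22.1, 130.2 ± 41.7 and 96.8 ± 27.0 CPM without it. Every LynKO library was below every WT library of the same treatment, WT 2 to 4 included, and the highest LynKO and lowest WT values were 115.9 and 142.7 CPM after LPS, 89.6 and 98.4 after R848, and 63.3 and 65.7 in NT. The R848 call with all mice was also lost without LynKO 1 (-2.82 ± 0.78, adjusted p = 0.0514). DESeq2 gave Cd74 no adjusted p in these comparisons.

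Beside that 1 of 7, LynKO against WT passed for 8.49%, 5.93% and 9.9% of all genes after LPS, R848 and NT, and for 4.74%, 4.03% and 6.88% without WT 1. In LynAKO against WT none of the 7 passed, where 0.0215%, 0.00715% and 0.0286% of all genes passed, and 4, 2 and 4 of the 7 had an unadjusted p under 0.05. In LynBKO against WT none passed either, with 0.0358%, 0% and 0.0644% of all genes, and 4, 2 and 3 of the 7 had an unadjusted p under 0.05. Without WT 1 the shares of all genes were 0.0143%, 0.00715% and 0.0143% in LynAKO and 0.0143%, 0.00715% and 0.0429% in LynBKO. DESeq2 called none of the 6 genes to which it gave an adjusted p in any of the 9 comparisons. Cd74 differed by -2.74 ± 0.74, -2.25 ± 0.66 and -3.34 ± 0.83 in LynAKO and by -2.82 ± 0.75, -2.21 ± 0.66 and -3.53 ± 0.84 in LynBKO with WT 1. Without WT 1 these values were between -0.46 and -0.04, none of which passed. Cd74 in NT passed in LynBKO without WT 3 (-3.91 ± 0.74, adjusted p = 0.0293), a fit that keeps WT 1. The 9 comparisons share the WT libraries.

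H2-DMb1 after R848 was higher in each knockout than in WT mice 2 to 4, but no difference passed with WT 1 kept. After R848 it had 19.0, 22.0, 20.0 and 23.8 CPM in LynAKO mice, 27.8, 23.7, 24.2 and 24.2 in LynBKO and 22.3, 23.4, 23.2 and 18.8 in LynKO, against 15.1, 15.1 and 14.7 CPM in WT mice 2 to 4. No knockout library overlapped the WT ones. WT 1 was left out because of its values at these genes, H2-DMb1 among them, so calls that need this are descriptions. Without WT 1 the difference after R848 passed in LynBKO (0.74 ± 0.11, adjusted p = 0.043, where 0.00715% of all genes passed). It also passed in LynKO (0.55 ± 0.11, 0.0108, where 4.03% passed). In LynAKO it did not pass (0.50 ± 0.11, 0.646, where 0.00715% passed), though its size was near that in LynKO. An adjusted p depends on the p-values of all genes in its comparison. With all 4 WT mice none passed, at 1.15 ± 0.43 (adjusted p = 0.943), 0.96 ± 0.43 (0.202) and 0.91 ± 0.43 (1) in LynBKO, LynKO and LynAKO. In LPS and NT the differences without WT 1 were 0.18 to 0.48 and did not pass.

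The I-A and I-E chain genes did not pass in any of the 9 comparisons, with or without WT 1. H2-Ab1 differed from WT by at most 0.36 in size with all mice. H2-Aa differed by 0.12 to 0.84 and H2-Eb1 by -0.07 to 0.66 with WT 1. Without it the H2-Aa differences were -0.24 to 0.58 and those of H2-Eb1 -0.37 to 0.44. Ciita after LPS was at 4.53 ± 0.645 CPM in LynAKO, 4.95 ± 0.364 in LynBKO and 4.38 ± 0.518 in LynKO, against 3.13 ± 0.276 CPM in WT. The differences of 0.54 ± 0.16 (adjusted p = 0.825), 0.67 ± 0.16 (0.239) and 0.51 ± 0.16 (0.0557) missed the threshold. No knockout library overlapped the WT range after LPS, which is a description and not a test. WT mice 2 to 4 averaged 3.06 ± 0.282 CPM, and against them the differences were 0.57 ± 0.18 (adjusted p = 1), 0.70 ± 0.17 (0.354) and 0.54 ± 0.17 (0.0786).

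**Figure D4:**
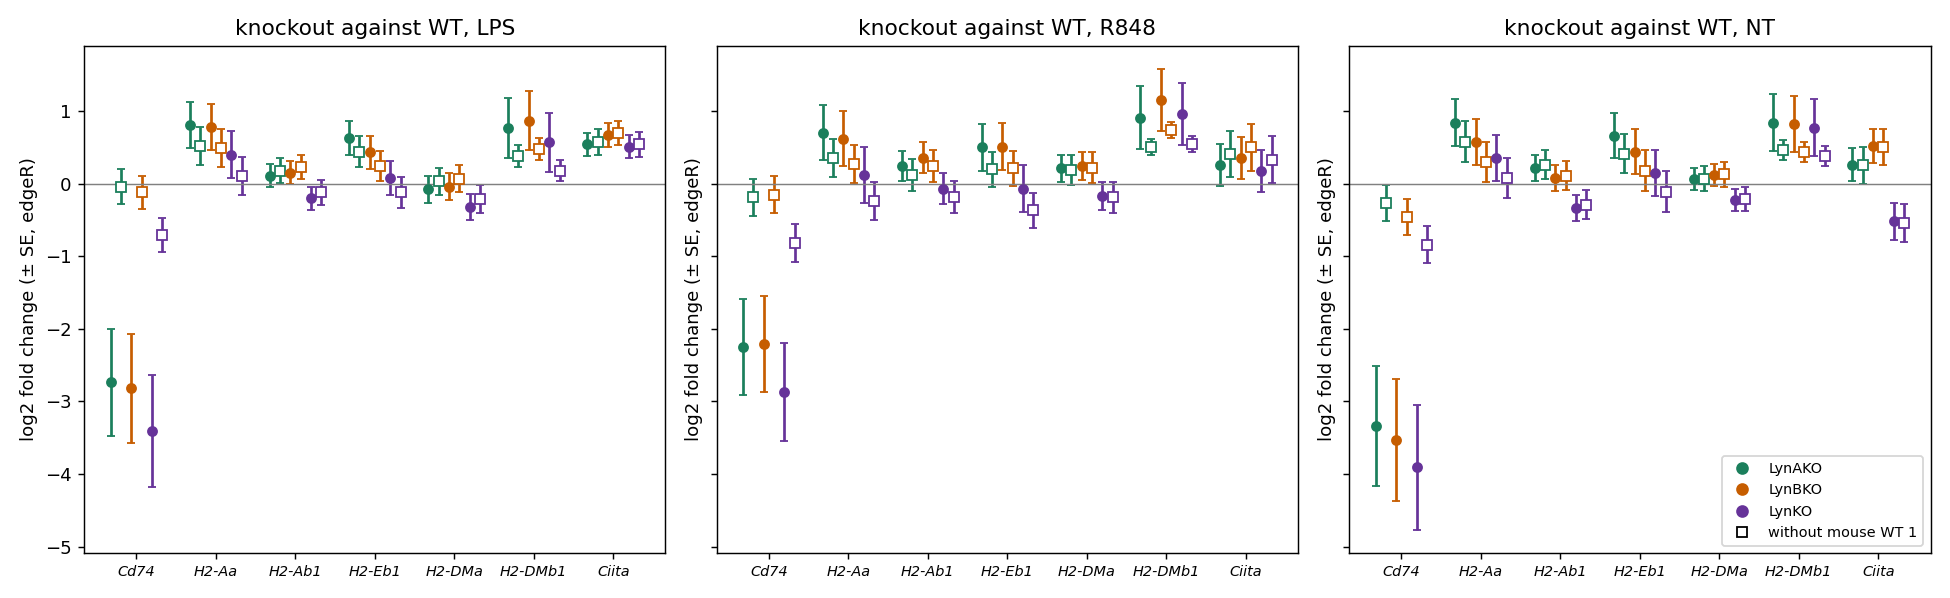
Log2 fold change of each knockout against WT (y axis, ± SE from edgeR) for the 7 genes, after LPS, after R848 and in NT. Filled circles use 4 WT mice and open squares leave out WT 1. Cd74 moves from below -2 to between -0.84 and -0.04 without WT 1, and the H2-DMb1 differences get smaller with narrower bars.

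Between knockouts, Ciita in NT was higher in LynBKO than in LynKO. It had 4.00, 2.98, 2.54 and 2.86 CPM in LynBKO mice, against 1.19, 1.51, 2.19 and 1.01 CPM in LynKO mice, and the groups did not overlap. The log2 difference was 1.04 ± 0.24 (adjusted p = 0.0188), 1 of 7 genes beside 3.57% of all genes. It was lost without LynBKO 1 (0.91 ± 0.26, adjusted p = 0.0859), LynKO 1 (0.95 ± 0.26, 0.0662) or LynKO 4 (0.90 ± 0.25, 0.0846), and without the 2 libraries that held both Xist and Y-linked RNA (0.94 ± 0.27, 0.141). Ciita in NT differed between LynAKO and LynKO by 0.79 ± 0.24 (adjusted p = 0.0884), with 0 of 7 genes called beside 3.39% of all genes, 2 at an unadjusted p under 0.05 and 2 called by DESeq2. It passed without LynKO 3 (1.04 ± 0.25, adjusted p = 0.0287), and H2-Ab1 passed without LynAKO 1 (0.71 ± 0.17, 0.018). None passed in the other 7 comparisons between knockouts. There LynAKO against LynBKO had 0% of all genes, and 0 of 7 at an unadjusted p under 0.05, in each treatment. LynAKO against LynKO had 1.09% and 0.858% after LPS and R848, with 1 and 0 of 7 unadjusted, and LynBKO against LynKO had 0.629% and 1.72%, with 1 and 1. In those 7 comparisons DESeq2 called none of the 6 genes to which it gave an adjusted p.

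No ligand response differed from that of WT by edgeR's test. The LPS response of Ciita was larger in LynKO than in WT by 1.03 ± 0.33 on the log2 scale (adjusted p = 0.275), by 1.09 ± 0.36 (0.468) without WT 1 and by 1.05 ± 0.30 (0.0949) with the mouse as a block. It was 1 of 7 genes with an unadjusted p under 0.05 in LynKO for each ligand, beside 0 in LynAKO and LynBKO. The share of all genes that passed was 0%, 0% and 0.1% for the LPS responses of LynAKO, LynBKO and LynKO and 0%, 0% and 0.193% for R848. DESeq2 called 0 of the genes to which it gave an adjusted p, and gave none to 1 of the 7, or to 2 in the R848 response of LynKO. The NT level of Ciita was 1.48 ± 0.52 CPM in LynKO, against 2.14 ± 0.34 CPM in WT (log2 difference -0.52 ± 0.25, adjusted p = 0.212). WT mice 2 to 4 averaged 2.17 ± 0.409 CPM, and the difference from them was -0.54 ± 0.26 (adjusted p = 0.277).

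The mice also differed from each other in ways that genotype and treatment did not give. The SD of log2 CPM within groups was 1.19 for Cd74 and 1.24 for H2-DMb1, which fell to 0.42 and 0.19 without WT 1. It was 0.43 for H2-Aa, 0.40 for H2-Eb1, 0.32 for H2-Ab1, 0.27 for H2-DMa and 0.33 for Ciita without WT 1, beside a median of 0.20 over all genes. Over the 15 mice other than WT 1, LynKO 4 was lowest for Cd74, H2-Aa, H2-Ab1, H2-Eb1 and Ciita, averaged over treatments. The highest was WT 4 for Cd74, LynAKO 4 for H2-Aa and H2-Eb1, and LynBKO 1 for H2-Ab1 and Ciita. The highest mouse was 1.75 to 2.88 times the lowest, depending on the gene.

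Mice high for 1 chain were high for the others. Over the 15 mice, Pearson's r between mouse means was 0.96 for H2-Aa and H2-Eb1, 0.92 for H2-Aa and H2-Ab1 and 0.92 for H2-Ab1 and H2-Eb1 (Spearman's rho 0.94, 0.90 and 0.93). Cd74 followed H2-Eb1 with r = 0.84 (rho 0.81), and H2-DMb1 followed Cd74 least (r = 0.20, rho 0.30). With WT 1 included, Cd74 and H2-Eb1 gave r = -0.47 and Cd74 and H2-DMb1 r = -0.91, so those values rest on that mouse. Ciita followed the chains less closely, with r of 0.62 to 0.65. The points share libraries, and genotypes are mixed in them, so these are descriptions.

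**Figure D5:**
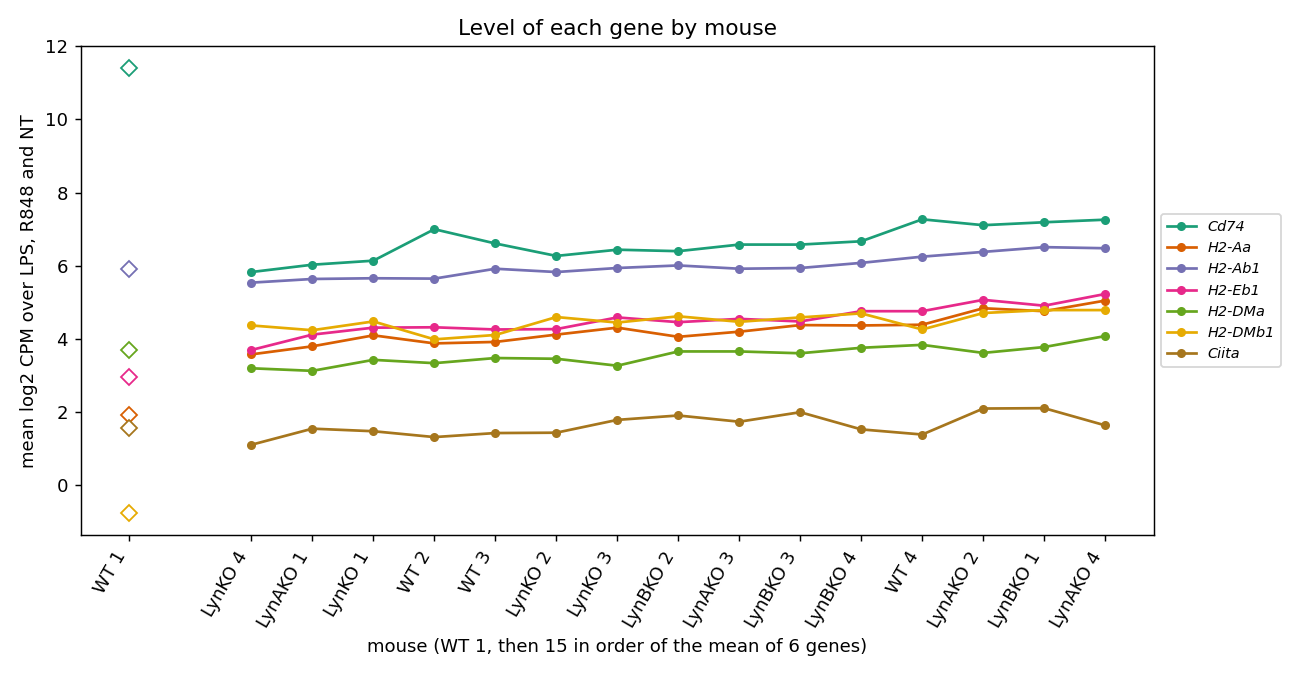
Mean log2 CPM of each gene over the LPS, R848 and NT libraries of a mouse (y axis), for WT 1 at the left (open diamonds) and the other 15 mice in order of the mean of 6 genes (without Ciita). Lines join the values of 1 gene. Of the 15 mice other than WT 1, H2-Aa, H2-Ab1 and H2-Eb1 are lowest in LynKO 4 and highest in LynAKO 4 or LynBKO 1, and WT 1 departs at Cd74, H2-DMb1, H2-Aa and H2-Eb1.

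The genes whose mouse means were most like the mean of those 6 were ranked by r over the same 15 mice, among 11533 genes with a mean of at least 1 CPM, whose median r was 0.01. Zyx, which encodes the focal adhesion protein zyxin, had r = 0.94 (rho 0.94). It was followed by Daxx (0.89), a histone chaperone gene of the same chromosome, Rac2 (0.89), a small GTPase gene of blood cells, and S100a9 (0.88), a calprotectin subunit. Cd52, Eci2 and Gm2a had 0.88, Trafd1 0.87, Coro1a 0.86 and Ehbp1l1 0.85. With WT 1 added, r fell to 0.39 to 0.86 for the 10 genes.

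Of the factors that recruit CIITA, 3 of 7 rose and 2 fell after LPS in WT, where 61.6% of all genes tested passed in either direction. Nfyb, an NF-Y subunit, rose by 1.29 ± 0.11 (adjusted p = 8.07e-09), the RFX subunit gene Rfx5 by 0.86 ± 0.21 (0.0016) and Creb1 by 0.65 ± 0.09. The other RFX subunit genes changed the other way, Rfxank by -0.92 ± 0.15 (4.2e-05) and Rfxap by -0.56 ± 0.13 (0.00121). Rfx5 was at 38.3 CPM in WT 1 after LPS and 24.0 in NT, and the other WT mice had at most 31.3 and 16.6 CPM. R848 gave 3 higher and 2 lower of the 7 in WT, where 56.7% of all genes passed, and LPS gave 3 higher and 3 lower in each knockout. Of 9 tested genes of interferon gamma signalling, 7 rose and 2 fell after LPS in every genotype, where 60.7% to 67.3% of all genes passed. In WT these included Socs1 (6.97 ± 0.25), a feedback inhibitor, the kinase gene Jak2 (4.47 ± 0.13) and the transcription factor gene Irf1 (3.75 ± 0.11), while Irf8 (-0.61 ± 0.12) and Usf1 (-0.47 ± 0.11) fell. Ifng itself had no count in any of the 48 libraries. Of 6 genes listed as possible repressors of Ciita, 5 rose after LPS in WT, led by Bhlhe40 (1.92 ± 0.15), Nfil3 (1.57 ± 0.13) and Prdm1 (0.94 ± 0.11), and 1 fell. Each of these shares stands beside the 61.6% of all genes.

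Of 10 genes of antigen processing, 3 rose and 1 fell after LPS in WT, beside the same 61.6% of all genes. Sppl2a, whose protease clears the invariant chain stub, rose by 1.40 ± 0.10 (adjusted p = 8.16e-10), Ctsz by 0.55 ± 0.10 and the adaptor gene Ap2m1 by 0.46 ± 0.07, and the cathepsin gene Ctsl fell (-0.57 ± 0.07). Cd83, which protects class II from the ubiquitin ligase MARCH1, rose by 3.80 ± 0.13 (2.31e-14), March1 by 0.49 ± 0.14 (0.00547), and March8 fell (-0.41 ± 0.08). Of 5 other class II genes of the locus, 3 were tested. After LPS, 1 was higher and 0 lower in WT and LynBKO, and 1 higher and 1 lower in LynAKO and LynKO. Of all genes, 60.7% to 67.3% passed there. H2-DMb2 averaged 0.217 CPM after LPS and 1.18 CPM in NT in LynAKO, and 0.473 and 1.03 CPM in LynKO. H2-Ob, a chain of H2-DO, which restrains H2-DM, was higher after LPS in WT (1.51 ± 0.545 CPM, against 0.237 ± 0.192 CPM in NT, log2 fold change 2.60 ± 0.59, adjusted p = 0.000941). Without WT 1, which had none in NT, the change was 2.26 ± 0.51 (0.00154). The WT NT libraries held 0 to 0.402 CPM of H2-Ob, so both changes rest on values near 0. H2-Ea and H2-Eb2 were at or near 0 throughout.

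Some markers of other cells also passed after LPS in WT, again beside 61.6% of all genes. There 7 of 14 tested dendritic cell markers were higher and 1 lower, 0 of 2 B cell markers higher and 2 lower, 1 of 2 T and NK cell markers higher, 3 of 6 neutrophil markers higher, and 4 of 10 macrophage markers higher and 2 lower. These included Ccr7 (4.37 ± 0.93), a chemokine receptor gene, and S100a9 (2.01 ± 0.38), and their part in the class II changes was not tested. Leaving out WT 1, with 59.7% of all genes passing, gave 7 higher and 0 lower dendritic cell markers, 4 higher neutrophil markers, 3 higher and 2 lower macrophage markers and 3 higher and 3 lower CIITA partners. The counts of the B cell, T and NK cell, interferon, repressor, processing and turnover lists did not change. Of the 3 other class II genes of the locus tested, 1 was higher and 0 lower with WT 1. Without WT 1, 1 was higher and 1 lower.

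In LynKO against WT without ligand, where 9.9% of all genes passed, 1 of 7 CIITA partners was higher (Nfya, 0.24 ± 0.06, adjusted p = 0.0166) and none lower. Of the 10 processing genes, 4 passed. Ctsl was higher (0.44 ± 0.09), and Ctsz (-0.47 ± 0.07), Ctss (-0.33 ± 0.08), the main protease of the invariant chain, and Ctsd (-0.26 ± 0.07) were lower. March1 (-0.49 ± 0.14) was lower, 1 of 3 turnover genes. Irf1 (-0.29 ± 0.07) and Ifngr1 (-0.20 ± 0.06) were lower, 2 of 9 interferon gamma signalling genes. Of 6 possible repressors of Ciita, 2 were higher and 1 lower. Among 10 macrophage markers 4 were lower, Lyz2 included (-0.78 ± 0.08, adjusted p = 3.46e-06). So were 1 of 2 B cell markers and 1 of 6 neutrophil markers. H2-Ob was higher (0.984 ± 0.287 CPM in LynKO, against 0.237 ± 0.192 CPM in WT, 1.99 ± 0.49, adjusted p = 0.0109). The WT libraries held 0 to 0.402 CPM of it there, so this difference rests on values near 0. Ctsl and Ctss passed in the same direction after LPS and R848, and Ctsz after LPS. Ctss in NT was at 5935.1 CPM in WT 1 and at 4632.7 to 4770.9 CPM in the other WT mice. Leaving out WT 1, with 6.88% of all genes passing, ended the calls of Ctsd (-0.22 ± 0.08, adjusted p = 0.108) and Ifngr1 (-0.17 ± 0.06, 0.15). It left those of Nfya (0.22 ± 0.07, 0.0497), Ctss (-0.24 ± 0.07, 0.0446), Ctsl, Ctsz, March1, Irf1, Lyz2 and H2-Ob (1.63 ± 0.39, 0.0133).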

How the data were processed

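The values are gene counts of 48 libraries. Per the submitters' processing notes, the tools used on GRCm38 were STAR 2.5.2b, Trimmomatic 0.36, DESeq2 and, from Subread 1.5.2, featureCounts. The deposited counts are unnormalized whole numbers per gene, and a second deposited table holds variance-stabilised log2 values, used only as a description. The annotation, strand setting and handling of multi-mapping reads were not given in the sources used here. No column was left unassigned (0 others). Totals were 14974764 to 23321447 counts per library.

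Counts were tested with edgeR 4.0.16 (R 4.3.3, limma 3.58.1) by the quasi-likelihood test after TMM scaling and filterByExpr (minimum count 10, minimum total 15), which kept 13986 of 49315 genes. Adjusted p-values are Benjamini and Hochberg's over all genes tested, with a threshold of 0.05, in each of 36 comparisons. Ligands were fitted on the 12 libraries of a genotype, genotypes on the 16 of a treatment, and response differences on all 48. An SE was computed from the fold change and its test statistic. Logged CPM used a prior count of 2. Alternatives were DESeq2 1.42.0, its size factors in edgeR, no filter on low counts, a replicate block, each mouse left out and, added after seeing the data, total-count scaling, alone and with the block, and the block without WT 1. The fits were tested on simulated data. Python 3.11.15 was used for the summaries.

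The replicate numbers were read as mice between treatments, since the labels describe 4 mice per genotype. Deviations of same-numbered libraries from their group means correlated between treatments at -0.21 to 0.42, above 0.1 in 41 of 48 pairs. All 7 genes are described throughout. Of the other lists, as many as 4 rising and 4 falling genes past the threshold, those of largest fold change, could be named, and the 10 most similar genes were ranked by r as stated. The members and lists were chosen with earlier results of these data known. A few genes of these lists are not reported here by name.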

Additional observations from a re-analysis of the deposited data

Results flagged for a closer look

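In 9 of 84 groups of 4 libraries (7 genes in 12 groups), 1 library lay apart from the other 3 by Dixon's criterion on log2 CPM. Chance alone meets it in about 1 in 20 groups. Mouse WT 1 gave 5 of them. Its Cd74 level was 3786.6 CPM after LPS and 2958.2 CPM in NT, above the other WT mice. After R848 it was 1767.6 CPM, against at most 177.4 CPM in the other WT mice, and missed the criterion on the log2 scale. Its H2-DMb1 level was 0.391 CPM after LPS, 0.367 CPM after R848 and 0.744 CPM in NT, below the other WT mice. The other 4 were single libraries. H2-DMb1 was high in LynBKO 1 after R848 (27.8 CPM). H2-Eb1 was low in LynKO 4 after LPS (17.4 CPM). The library labelled LynBKO NT 3, whose Y-linked RNA goes against its mouse's other libraries, was low for H2-Eb1 (10.5 CPM) and H2-DMa (13.4 CPM).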

How the results depend on the processing

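With the replicate block, members called changed to 5 for LPS and 5 for R848 against NT in WT, 5 for R848 in LynAKO, 2, 3 and 1 for LPS against R848 in LynAKO, LynKO and WT, and 0 for LynKO against WT in NT. It changed no other count by over 1.5 times. Between genotypes, same-numbered mice are different animals and mostly of the same labelled sex. Their libraries correlated at -0.25 to 0.40, above 0.1 in 46 of 72 pairs, and 49 correlated best with their own number. All 4 pairs were above 0.1 in 4 of 18 comparisons (LynBKO and LynKO against WT after LPS, LynKO against WT and LynBKO against LynKO after R848). The block gave Cd74 in LynKO against WT -2.32 after LPS (adjusted p = 0.0365), -2.12 after R848 (0.0338) and -2.72 in NT (0.0653). With LynBKO NT 2 and NT 3 exchanged, LPS against R848 in LynBKO gave 1. The following block fits were chosen after seeing the data. Without WT 1 the block gave 6 for R848 against NT and 1 for LPS against R848 in WT, and Cd74 after R848 in WT turned to 0.43. With total counts it gave 5 and 5 for LPS and R848 in WT, 6 for R848 in LynAKO, and 1 and 1 for LPS against R848 in LynAKO and LynKO.

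Without the filter, edgeR's prior degrees of freedom were infinite (6.45 to 8.51 with it), so a gene's own spread was not used. Counts were then 6 for R848 in WT, 1, 2, 1 and 1 for LPS against R848 in LynAKO, LynBKO, LynKO and WT, 1 in each of the 6 response differences, 4 in each comparison of LynAKO or LynBKO with WT, 3, 2 and 3 for LynKO against WT after LPS, R848 and NT, 3, 3 and 4 for LynAKO against LynKO, and 2, 4 and 3 for LynBKO against LynKO. DESeq2 gave 2 for LynAKO against LynKO in NT; its counts for LynKO against WT are not given, since Cd74 had no adjusted p. Without the libraries holding both Xist and Y-linked RNA, LynBKO against LynKO in NT gave 0. Total counts gave 2 for LynKO against WT after LPS and moved the median of all genes there by 0.12. Total counts turned the R848 change of Ciita to -0.04 in LynAKO, -0.24 in LynBKO and -0.04 in WT (-0.04, -0.26 and -0.05 with the block), and LPS against R848 to -0.10 for H2-DMb1 in LynBKO and -0.10 for H2-Ab1 in LynKO with or without the block, and to -0.05 for H2-DMa in LynKO with it. Where no cause is given, the cause was not tested.

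Leaving out 1 mouse at a time gave 5 to 5, 4 to 6, 5 to 6 and 2 to 4 members for LPS against NT in LynAKO, LynBKO, LynKO and WT, and 2 to 3, 3 to 5, 4 to 5 and 1 to 3 for R848. It gave 0 to 1 for LPS against R848 in LynKO, for LynAKO and LynBKO against LynKO in NT, for LynBKO against WT in NT and after R848 and for LynKO against WT after R848, 0 to 2 for LynKO against WT after LPS, 1 to 1 for it in NT, and 0 to 0 in the other 20 comparisons. Directions turned for H2-Ab1 in LynAKO against LynBKO after LPS (0.14) and LynBKO against WT after LPS (-0.04, up to 0.26), both without LynBKO 1, H2-DMa in LynAKO against WT in NT (-0.18 without LynAKO 4, up to 0.18), H2-Ab1 in LynKO against WT after R848 (0.15 without WT 4, down to -0.19) and Ciita after R848 in LynBKO (-0.14 without LynBKO 3, up to 0.32). Ciita (21 to 103 reads), WT 1's H2-DMb1 (5 to 16 reads) and H2-Ob in WT NT libraries (0 to 0.402 CPM) are limited by depth.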
